A study of Mus musculus with 6 samples.

Results

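The proteasome genes of brown adipose tissue (BAT) were compared between KRAP-deficient (KRAP-/-, KO) mice and their wild-type (WT) littermates. They were taken as every gene whose symbol starts with Psma, Psmb, Psmc, Psmd, Psme, Psmf or Psmg, together with Nfe2l1, from the probe sets that carry 1 gene symbol. This gave 50 genes of the 18193 so named, read by 104 of the 45037 probe sets, and each gene was read from its brightest probe set. Signals of 48 of the 50 genes were high enough to be tested, among 11140 tested genes. The 2 left out were Psma8, a testis form of an alpha subunit, and Psmb11, a thymus form of a catalytic subunit, which lay below the array median on all 6 arrays. The probe set of Psme2 carries a further symbol and was not read as a gene.

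BAT was taken from 3 KO mice and 3 WT mice at 32 weeks of age, on normal chow, and the RNA of each animal was hybridised to an Affymetrix mouse genome array. Each KO mouse had 1 WT littermate as its partner, so that the 6 arrays form 3 littermate pairs. In the KO line a run of KRAP exons is replaced by a neomycin resistance cassette in every cell of the body, and both genotypes were kept on the C57BL6/J background. Signals are given as multiples of the median of the array they come from, and a difference is the log2 of KO over WT within a pair.

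The proteasome degrades proteins tagged with ubiquitin. Its 20S core is a barrel of alpha and beta rings whose beta rings hold the proteolytic sites, and its 19S cap, built of a ring of ATPases and a set of non-ATPase subunits, receives, unfolds and feeds in the substrate. Cells of the immune system, and other cells under interferon gamma, can exchange the catalytic subunits for inducible ones. Nfe2l1 encodes the transcription factor that raises the subunit genes when the proteasome falls short, and in brown fat it is known for its part in adaptation to cold.

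BAT markers were present on every array, with a summed signal of 1535 to 2227 in KO tissue and 1523 to 2197 in WT tissue over 7 brown adipocyte genes. Among them, Ppargc1a read 111.4 and 72.7 on the KO and WT arrays of pair 1, against 9.88 to 12.2 on the other 4. Dio2 read 101.1 and 44.3 on the same 2 arrays, against 4.05 to 15.3. Ucp1 (624.1 and 655.3, against 342.6 to 526.4) and Cox8b (683.3 and 704.3, against 552.4 to 634.0) were also highest on these 2 arrays, by a smaller factor. Elovl3, Prdm16 and Cidea did not set pair 1 apart in this way. The probe set of the targeted gene (Itprid2, the current symbol of KRAP) read 35.1 to 47.0 in KO tissue and 42.2 to 56.6 in WT tissue, and it was not placed relative to the deleted exons, so it does not check the genotype. On control probe sets the WT array of pair 2 stood apart from the rest. Its 18S ribosomal RNA intensity was 1202, against 63.0 to 123.2 on the other 5 arrays, and its ratio of 3' to 5' signal for actin was 3.80, against 1.91 to 2.58. Values of this array are part of every pair 2 difference, and the counts and medians over all proteasome genes and the 19S cap are therefore also given without pair 2. Skeletal muscle markers summed to 533.1 on the KO array of pair 2 and to 201.7 on the WT array of pair 3, against 14.9 to 69.6 on the other 4. Myeloid markers summed to 105.3 to 120.9 in KO tissue and 88.9 to 124.9 in WT tissue. Of 7 tested, 1 was lower and 2 were higher in KO in all 3 pairs (19.7% and 10.9% of all tested genes). Of 4 tested endothelial markers, 2 (Kdr and Cdh5) were lower in KO in all 3 pairs (19.7% of all tested genes). The median of the 4 was -0.21, with sums of 32.3 to 34.6 in KO tissue and 32.1 to 46.6 in WT tissue. Of the 7 lymphocyte markers 1 passed the filter, with Cd3e, Cd3g, Cd4 and Cd79a among the dim ones, and their sums were 3.44 to 6.70 in KO tissue and 4.52 to 6.43 in WT tissue. The part of any of these in the results was not tested, and since the RNA came from whole tissue, fewer cells of a type and less RNA per cell cannot be told apart.

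Most proteasome genes had slightly lower signals in KO than in WT tissue, and among the groups of subunits the 19S cap had the lowest median. The median difference over the 48 tested genes was -0.18 on the log2 scale, against -0.071 over all 11140 tested genes. The log2 difference was below 0 for 38 of the 48 (79.2%), against 61.5% of all tested genes. Of the 48, 16 were lower in KO in all 3 pairs (33.3%, against 19.7% of all tested genes) and 2 were higher in all 3 (10.9% of all tested genes). None of the 48 passed an adjusted p of 0.05 in limma, nor did any gene on the array (0.0%). At an unadjusted p under 0.05, 2 of the 48 were lower (4.17%, against 4.98%), namely Psmd14 and Psmc3ip, and 0 were higher (3.22% of all tested genes). Signals of the KO and WT groups did not overlap for 6 genes lower in KO (12.5%, against 7.87%) and 1 gene higher in KO (4.43% of all tested genes). No brightest probe set reached 1.5-fold lower in all 3 pairs, a size that 0.862% of all tested genes reached.

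**Figure D1:**
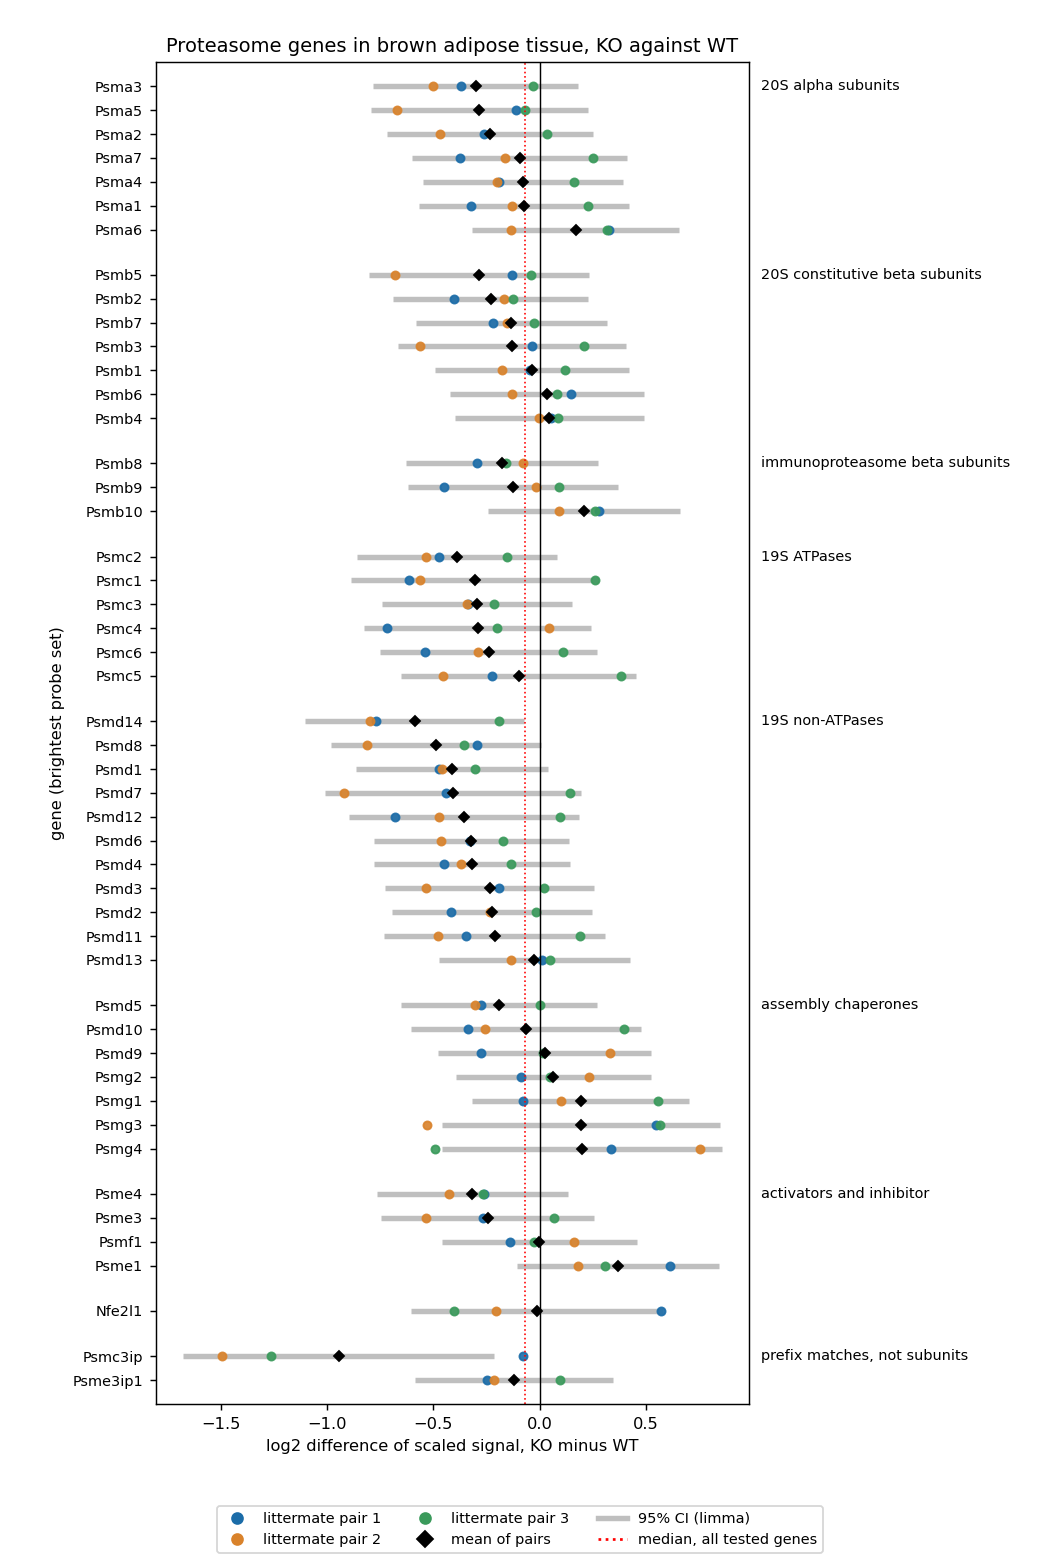
Log2 difference of KO minus WT signal for the 48 tested proteasome genes, by role, with the 3 littermate pairs as coloured points, their fitted mean as a diamond and the 95% confidence interval of limma as a grey bar. All 17 genes of the 19S cap have means left of 0 (against 61.5% of all tested genes), and the intervals of Psmd14 and Psmc3ip alone leave out 0. The red line marks the median of all tested genes at -0.071.

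The pairs differed in how far the genes were shifted. The median over the 48 genes was -0.26 in pair 1, -0.27 in pair 2 and 0.041 in pair 3. The medians of all tested genes in the same pairs were -0.030, -0.24 and 0.057, so that pair 2 carried a low median of its own across the array. Of the 48 genes, 39 were lower in KO in pair 1 (53.2% of all tested genes), 40 in pair 2 (71.8%) and 20 in pair 3 (42.9%). With pair 2 set aside, 18 of the 48 were lower in both remaining pairs (37.5%, against 25.0% of all tested genes). The median without pair 2 was -0.095 over the proteasome genes, -0.25 over the 19S cap and 0.014 over all tested genes.

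The 19S cap held 17 tested genes, whose median difference was -0.30, or 1.24-fold lower in KO. All 17 differences were below 0 (against 61.5% of all tested genes), in a range of -0.59 to -0.024. Its median was -0.44 in pair 1 and -0.46 in pair 2 but only -0.018 in pair 3. Of the 17, 8 were lower in KO in all 3 pairs (47.1%, against 19.7% of all tested genes), while 9 were lower in pairs 1 and 3 (52.9%, against 25.0%) and 15 in pairs 1 and 2 (88.2%, against 40.8%). The 6 ATPases, which form the unfolding ring, had a median of -0.29, and the 11 non-ATPase subunits one of -0.32. None of these 17 genes passed the adjusted test.

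**Figure D2:**
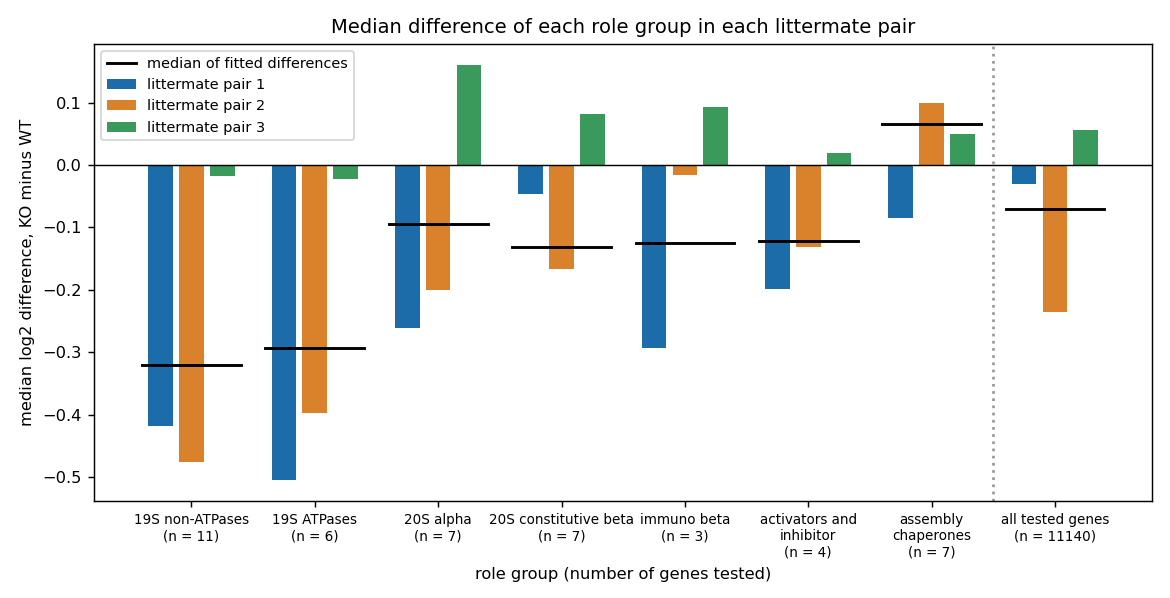
Median log2 difference of KO minus WT signal for each role group in each littermate pair (bars), with the median of the fitted differences as a black line and all 11140 tested genes on the right. Pairs 1 and 2 of the 19S groups lie between -0.40 and -0.50 while pair 3 lies at -0.023 for the ATPases and -0.018 for the non-ATPases.

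Psmd14 encodes the deubiquitinase of the 19S lid, which cuts ubiquitin chains off the substrate. Its signal was 48.6, 47.3 and 52.2 in the KO mice of pairs 1, 2 and 3, against 82.9, 82.3 and 59.7 in their WT littermates. The 3 KO values lay close together and below all 3 WT values, and the WT mouse of pair 3 was nearer to the KO mice than to the other WT mice. Means were 49.4 ± 2.53 in KO and 74.9 ± 13.2 in WT (SD, n = 3 each), a log2 difference of -0.59 (95% confidence interval -1.10 to -0.071), or 1.5-fold lower. Its unadjusted p was 0.0313 and its adjusted p 0.538 in limma.

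Psmd8, another lid subunit, had 106.0, 67.9 and 75.4 in KO tissue and 129.8, 119.0 and 96.6 in WT tissue. The KO mouse was lower in each pair, although the KO mouse of pair 1 exceeded the WT mouse of pair 3. The log2 difference was -0.49 (-0.98 to 0.0067, adjusted p = 0.590 in limma).

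Psmd1, the large scaffold subunit of the 19S base, had nearly the same signal in each KO mouse, 40.9, 41.1 and 41.1, against 56.9, 56.4 and 50.8 in WT mice. The groups did not overlap, and KO over WT was 0.719, 0.728 and 0.810 in the 3 pairs. Its log2 difference was -0.41 (-0.86 to 0.037, adjusted p = 0.619 in limma). Psmd7, the lid subunit that partners Psmd14, had 14.6, 9.71 and 11.8 in KO tissue and 19.7, 18.3 and 10.7 in WT tissue. It was lower in KO in pairs 1 and 2 and higher in pair 3, with a log2 difference of -0.41 (-1.01 to 0.20) that was -0.15 without pair 2.

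Among the ATPases, Psmc2 had 42.9, 47.7 and 54.8 in KO tissue and 59.5, 69.2 and 61.0 in WT tissue. Its groups did not overlap, the log2 difference was -0.39 (-0.86 to 0.083, adjusted p = 0.645 in limma), and a second probe set of nearly the same brightness gave -0.46 while another, close to the array median, gave 0.093. Psmc3, with 31.2, 32.3 and 30.7 in KO tissue and 39.4, 40.9 and 35.6 in WT tissue, also had groups that did not overlap. Its log2 difference was -0.30 (adjusted p = 0.705 in limma). Psmc1, Psmc4 and Psmc6 had differences of -0.30, -0.29 and -0.24, each with 1 pair that ran the other way. Psmc5 was nearest to 0 among the ATPases, at -0.10, with KO over WT of 0.856, 0.729 and 1.30.

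The other non-ATPase subunits spanned a range of their own. Psmd12 was at -0.35, the ubiquitin receptor Psmd4 and the lid subunit Psmd6 were both at -0.32, and Psmd3, Psmd2 and Psmd11 lay between -0.24 and -0.21. Psmd13 showed hardly any difference, with 11.8, 12.6 and 14.0 in KO tissue and 11.7, 13.8 and 13.5 in WT tissue (-0.024).

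**Figure D3:**
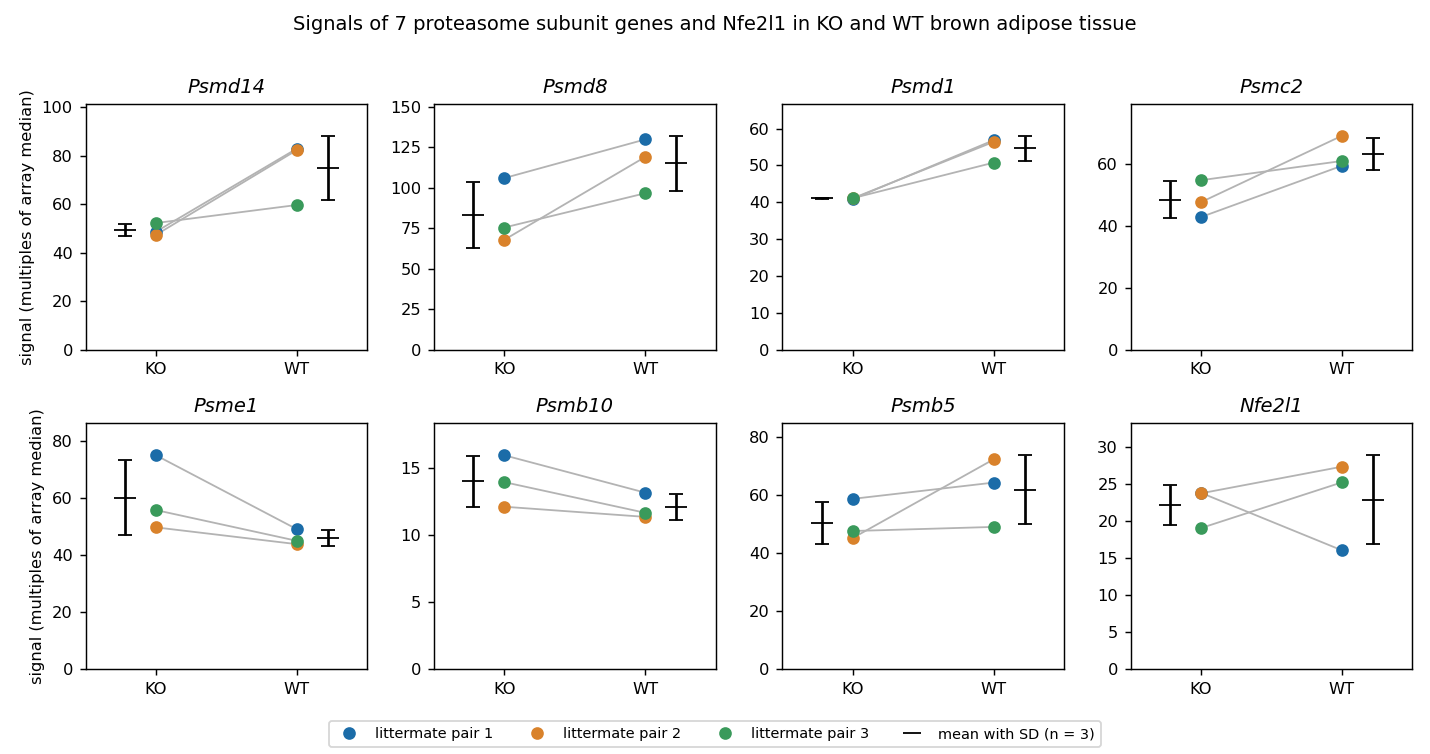
Signals of 8 genes in multiples of the array median for KO (left) and WT (right) BAT, with littermates joined by a line and the mean with SD (n = 3) beside each group. The KO values of Psmd14, Psmd1 and Psmc2 all lie below the WT values, those of Psme1 all lie above, and those of Nfe2l1 lie within the WT range.

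Psmd11, a lid subunit whose phosphorylation by protein kinase A raises proteasome activity, was read by 5 tested probe sets, and these differed. The brightest had 131.6, 99.8 and 121.7 in KO tissue and 167.3, 139.0 and 106.7 in WT tissue, a log2 difference of -0.21. Leaving out pair 2 made it -0.079, and leaving out pair 3 made it -0.41. The probe set 1440253_at had 26.3, 17.0 and 15.6 in KO tissue and 42.7, 27.3 and 27.4 in WT tissue. Every KO value of that probe set was below every WT value, with pair differences of -0.70, -0.68 and -0.82. Its mean was -0.73 (-1.18 to -0.29, unadjusted p = 0.00647, adjusted p = 0.423 in limma). It was the only 1 of the 83 tested proteasome probe sets to be 1.5-fold lower in all 3 pairs (1.20%, against 0.819% of all tested probe sets). The other 3 probe sets gave -0.27, -0.35 and -0.056. The parts of the transcript that each probe set reads were not compared here.

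**Figure D4:**
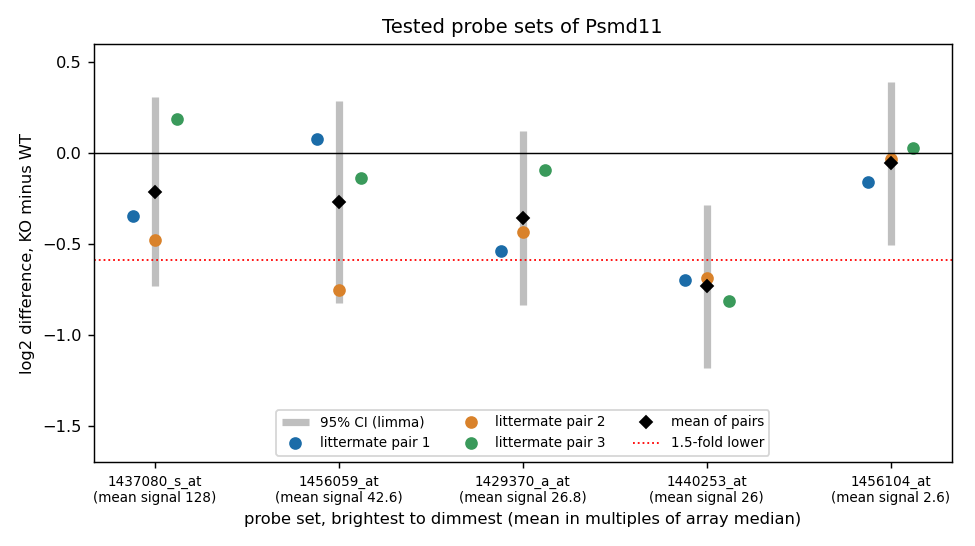
Log2 difference of KO minus WT signal for the 5 tested probe sets of Psmd11, from the brightest on the left, with the 3 littermate pairs as points, the mean as a diamond and the 95% confidence interval of limma as a bar. At 1440253_at all 3 pairs lie below the dotted line of 1.5-fold lower, and at the other 4 probe sets they do not.

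Over all probe sets, 26 of the 83 tested were lower in KO in all 3 pairs (31.3%, against 18.4% of all tested probe sets). At an unadjusted p under 0.05, 4 of the 83 were lower (4.82%, against 5.14% of all tested probe sets), 1 each for Psmd14, Psmc3ip, Psmd11 and Psmc2, and 0 were higher (3.41% of all tested probe sets). Of the 20 genes with more than 1 tested probe set, 12 had every probe set below 0, 3 had every one above 0 and 5 had some on either side. The same counts were not taken over all genes, of which 61.5% were below 0 on their brightest probe set. The 12 against 3 is therefore a description of the probe sets only. Psma1, for example, ran from -0.15 to 0.43, and Psmb1 from -0.12 to 0.61, where the dim probe sets gave the high values.

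The constitutive 20S core was closer to the array as a whole. Its 14 tested genes had a median difference of -0.11, in a range of -0.30 to 0.17. The median was -0.16 in pair 1, -0.17 in pair 2 and 0.084 in pair 3. Differences were below 0 for 11 of the 14 (78.6%, against 61.5% of all tested genes), and 5 of the 14 were lower in KO in all 3 pairs (35.7%, against 19.7%). Among the alpha subunits, which gate the barrel, Psma3 had the lowest value, with 163.5, 126.5 and 135.5 in KO tissue, 210.9, 179.2 and 138.5 in WT tissue and a log2 difference of -0.30. Psma6 lay at the other end, with 188.2, 168.9 and 181.5 in KO tissue, 149.8, 185.4 and 145.9 in WT tissue and a difference of 0.17.

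The 3 constitutive catalytic subunits are Psmb5, Psmb6 and Psmb7, which carry the chymotrypsin-like, caspase-like and trypsin-like activities. Psmb5 had 58.7, 45.2 and 47.6 in KO tissue, against 64.3, 72.3 and 49.0 in WT tissue. The KO mouse was lower in each pair, but by very little in pair 3, and the log2 difference of -0.28 (-0.80 to 0.23) was -0.087 without pair 2. Psmb6 had 79.9, 73.6 and 76.4 in KO tissue and 72.2, 80.4 and 72.2 in WT tissue, so that the groups overlapped and the difference was 0.034 (-0.42 to 0.49). Psmb7 had 213.0, 177.5 and 193.6 in KO tissue and 247.7, 197.3 and 197.3 in WT tissue (-0.13, -0.58 to 0.32).

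Psmb5 and Psmb6 are shown by sequence because the letters of the antioxidant response element, the type of site Nfe2l1 binds, stand close to their starts. The sequence searched was TGACNNNGC on either strand, within 250 bases before to 50 bases after each RefSeq gene start (mouse GRCm38.p6). The windows are chr14:54617996-54618055 on the minus strand for Psmb5 and chr11:70525307-70525366 on the plus strand for Psmb6, given 5' to 3' on the gene's strand, with the match in capitals.
Psmb5: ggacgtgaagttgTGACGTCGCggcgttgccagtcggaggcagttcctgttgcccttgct
Psmb6: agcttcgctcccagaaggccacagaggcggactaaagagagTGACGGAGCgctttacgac
The table of promoters held 42 of the 50 genes, with 49 windows. The letters occurred in 6 of the 49 (12.2%), against 12.4% of all 32851 windows, and the other 4 belonged to Psmc6, Psmd12, Psmd9 and Psme4. Such a match is a description of the window and not a site shown to be bound.

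Nfe2l1 itself did not differ in a fixed direction. Its signal was 23.8, 23.7 and 19.1 in KO tissue and 16.0, 27.3 and 25.2 in WT tissue. KO over WT was 1.48 in pair 1, 0.868 in pair 2 and 0.755 in pair 3, and the KO values lay within the WT range. The log2 difference was -0.013 (-0.61 to 0.58, adjusted p = 0.996 in limma), and its sign changed with the scaling of the arrays (0.0486 as deposited and 0.0617 after quantile normalization). A list of 11 genes for the processing and partners of Nfe2l1, which also takes in its relative Nfe2l2, had 9 on the array, all tested. Of these 9, 3 were lower and 1 was higher in KO in all 3 pairs (19.7% and 10.9% of all tested genes). Their median was -0.090, the value of Nfe2l2 itself, and 0 passed the adjusted test. The lowest was Mafg, a small Maf partner, with 4.96, 3.86 and 4.58 in KO tissue and 7.87, 6.35 and 5.27 in WT tissue (-0.53).

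The inducible subunits, which form the immunoproteasome, did not move as a set. Psmb8 had 7.20, 9.02 and 7.87 in KO tissue and 8.83, 9.54 and 8.77 in WT tissue (-0.18, -0.63 to 0.27). Psmb9 had 4.80, 6.10 and 5.75 in KO tissue and 6.55, 6.16 and 5.40 in WT tissue (-0.12, -0.62 to 0.37). Psmb10 instead was higher in KO in each pair, with 16.0, 12.1 and 14.0 in KO tissue and 13.2, 11.4 and 11.7 in WT tissue (0.21, -0.24 to 0.66, adjusted p = 0.807 in limma).

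Each inducible subunit was also set against the constitutive one whose place it takes. The log2 ratio of Psmb10 to Psmb7 was higher in KO in all 3 pairs, by 0.49, 0.25 and 0.29, a mean of 0.34 ± 0.134 (SD, n = 3 pairs). The exact two-sided sign-flip permutation test over the 3 pairs gave p = 0.25, the smallest it can give, and 0.75 after adjustment over the 3 ratios. The ratio of Psmb8 to Psmb5 differed by -0.16, 0.60 and -0.11, so that its mean of 0.11 rested on pair 2 and was -0.14 without it. The ratio of Psmb9 to Psmb6 differed by -0.60, 0.11 and 0.011, a mean of -0.16 that was 0.0618 without pair 1.

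Psme1 encodes the alpha subunit of the 11S activator (PA28), which opens the core without ubiquitin and is raised by interferon gamma. It had the highest difference of the 48 genes, with 75.1, 49.8 and 55.9 in KO tissue and 49.1, 43.9 and 45.1 in WT tissue. All 3 KO values lay above all 3 WT values. KO over WT was 1.53, 1.13 and 1.24 in the 3 pairs. The log2 difference was 0.37 (-0.11 to 0.84, adjusted p = 0.663 in limma), or 1.29-fold higher. Psme1 and Psmb10 were the 2 proteasome genes higher in KO in all 3 pairs.

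The window at the start of Psme1 is shown because it holds the letters of an interferon-stimulated response element, the type of site bound by interferon regulatory factors. The sequence searched was GAAA followed, after any 2 bases, by a second GAAA, on either strand, and the match, in capitals, reads on the opposite strand in Psme1. Psmg4, an assembly chaperone, is shown beside it with the match on its own strand. Its log2 difference was 0.20, with KO lower in pair 3. Both genes shown are among the 5 with the highest differences, and a relation between the letters and the differences was not tested. Both matches lie past the gene start, with their first base at 10 in Psme1 and 16 in Psmg4. The windows are chr14:55578434-55578513 and chr13:34162929-34162988, both on the plus strand (GRCm38.p6, RefSeq).
Psme1: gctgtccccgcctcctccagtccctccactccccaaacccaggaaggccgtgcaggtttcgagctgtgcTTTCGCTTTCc
Psmg4: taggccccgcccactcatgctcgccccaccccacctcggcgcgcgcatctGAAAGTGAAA
The letters occurred in 5 of the 49 proteasome windows (10.2%), against 3.44% of all 32851 windows. The other 3 belonged to Psmb3, Psmd4 and Psmd9, whose log2 differences were -0.13, -0.32 and 0.024. No match of this sequence overlapped a match of TGACNNNGC.

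Genes that work beside the immunoproteasome were read from 2 further lists. The 8 tested genes of antigen processing had a median of -0.040, with 6 below 0 (61.5% of all tested genes). In all 3 pairs 0 of the 8 were lower and 1 was higher in KO (19.7% and 10.9% of all tested genes). The peptide transporter gene Tap1 was at -0.10 and the MHC class I light chain gene B2m at -0.12. The 7 tested genes of interferon gamma signalling had a median of -0.15, with 6 below 0 (against the same 61.5%). In all 3 pairs 1 of the 7 was lower and 1 was higher (again against 19.7% and 10.9%). The transcription factor gene Irf1 was at -0.15, and Ube2l6, whose product conjugates the ubiquitin-like modifier Isg15, at 0.41. Signals of Ube2l6 were close to the array median, with 1.51, 1.22 and 1.12 in KO tissue and 0.865, 1.13 and 0.905 in WT tissue, and its groups overlapped. No gene of either list passed the adjusted test, and Ifng itself was too dim to be tested.

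The remaining activators and the inhibitor were not alike. Psme4, which encodes the PA200 activator, had 49.0, 43.1 and 43.1 in KO tissue and 58.6, 57.9 and 51.8 in WT tissue. The groups did not overlap, with a log2 difference of -0.32 (adjusted p = 0.687 in limma). Its next brightest probe set gave -0.13, with groups that overlapped and KO higher in pair 1. The 5 tested probe sets of Psme4 ran from -0.47 to -0.13. Psme3, the gamma form of the 11S activator, was at -0.24, and the inhibitor Psmf1 had 7.28, 6.89 and 6.48 in KO tissue and 8.01, 6.15 and 6.60 in WT tissue, with a difference rounding to 0.

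The assembly chaperones, which build the core and the base but leave the finished particle, had a median of 0.065 over 7 tested genes, in a range of -0.19 to 0.20. None of the 7 was lower in KO in all 3 pairs (19.7% of all tested genes), and 2 of the 7 had a difference below 0 (61.5% of all tested genes). Psmg4 had 10.6, 10.3 and 7.45 in KO tissue and 8.41, 6.09 and 10.5 in WT tissue, and its difference of 0.20 (-0.46 to 0.86) was -0.078 without pair 2. Psmg3 had 6.93, 4.62 and 6.10 in KO tissue and 4.74, 6.67 and 4.12 in WT tissue (0.20), and Psmg1 had 23.0, 18.9 and 23.0 in KO tissue and 24.3, 17.6 and 15.6 in WT tissue (0.19). In each of these 3 genes 1 pair ran against the other 2. The base chaperones Psmd10 and Psmd9 were at -0.065 and 0.024, and Psmd5 at -0.19.

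Genes outside the named prefixes that work with the proteasome were read from a further list. Of 15 tested genes for proteasome-associated proteins, 7 were lower and 0 were higher in KO in all 3 pairs (19.7% and 10.9% of all tested genes), with a median of -0.15 and 0 past the adjusted test. The lowest were Pomp, the maturation factor of the 20S core (-0.30), Txnl1, a thioredoxin bound to the 19S cap (-0.49), and Zfand2a, a stress-induced partner (-0.55). At the other end Ube3a was highest, at 0.19, and Ube3c, Uchl5 and Sem1 were at -0.026, -0.058 and -0.084. Of 8 tested genes for ubiquitin transfer and the unfoldase p97, 4 were lower and 1 was higher in all 3 pairs (again against 19.7% and 10.9%), with a median of -0.13. Vcp, which encodes p97, was at -0.22 and the chain-extending ligase Ube4b at -0.43.

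Of the symbols the prefix takes in that are not proteasome subunits, Psmc3ip, a meiotic recombination factor, had the lowest difference of the 48 at the floor used here. Its signal was 1.01, 0.585 and 0.642 in KO tissue and 1.07, 1.65 and 1.54 in WT tissue, close to the array median. The log2 difference was -0.95 (-1.68 to -0.21, unadjusted p = 0.019, adjusted p = 0.496 in limma), and pair 1 showed almost none of it, with KO over WT of 0.947. Without pair 1 the difference was -1.38 (adjusted p = 0.0243 in limma), so that the 1 name of the 48 to pass in any of the fits tried is not a subunit. That fit keeps pair 2, where KO over WT was 0.355 and whose WT array stood apart on control probe sets. Many other probe sets across the array also passed in it, as counted in the closing section. With a floor of 1 the difference of Psmc3ip was -0.47, and with a pseudocount of 1 also -0.47, above Psmd14 in both. Psme3ip1, which binds the gamma form of the 11S activator, was at -0.12.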

How the data were processed

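The authors extracted total RNA from BAT, hybridised biotin-labelled cRNA to 1 Affymetrix array per mouse, and deposited an intensity for each probe set as Affymetrix GCOS gave it. Their methods scale each chip to its 50th percentile and keep probe sets changed 1.5-fold in all 3 littermate pairs.

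Here each array was divided by its median, values were raised to a floor of 0.25, and log2 values of probe sets with a mean above 1 (22356 of 45037, with 64 controls left out) were tested with limma 3.58.1 in R 4.3.3. The fit held genotype and littermate pair, and p-values were adjusted over all tested probe sets by the Benjamini-Hochberg method. With 3 arrays a group, the number of arrays limits the precision, and intensities give no counting error. Pairs come from the series' design text and the methods, which match KO and WT littermates by number. Littermates deviated from their group means with a correlation of 0.446, 0.0847 and 0.160, against -0.359 to 0.281 for other KO and WT animals.

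Probe sets were named from the platform annotation and symbols were checked against the RefSeq gene table of GRCm38.p6, the build of the promoter windows. A gene was read from the probe set with the highest mean. Probe sets ending in _s_at or _x_at can read related transcripts. Genes given with a value on each array were Nfe2l1, the catalytic subunits and their inducible partners, Psme1, and the 5 with the highest and the 5 with the lowest differences. Psmc2, Psmc3, Psmd11, Psmd13, Psma3, Psma6, Psme4, Psmf1 and Mafg were added as ends of a role group or list, as genes whose groups did not overlap, or for their probe sets, some after their values were seen. Members and lists were chosen with earlier results of these data known. The fit was tested on simulated data. Alternatives changed the scaling, floor, pseudocount, filter, prior, pairing, choice of probe set and the pairs used.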

Additional observations from a re-analysis of the deposited data

How the results depend on the processing

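None of the 48 genes passed an adjusted p of 0.05 under any change of scaling, floor, filter, prior or probe set, and leaving out a pair gave 0 to 1 (Psmc3ip, which is not a subunit, without pair 1, at -1.38). Over all probe sets the number that passed in limma was 0 as reported (1911 at an unadjusted p under 0.05) but 23 with a floor of 1, 123 with a pseudocount of 1, 40 when means above 2 were asked for, 311 when the prior was robust and followed intensity, and 0 to 255 when a pair was left out (255 without pair 1). The number at an unadjusted p under 0.05 was 3178 with no filter. Without the replicate block, which ignores the littermate pairing, 0 passed and 1283 had an unadjusted p under 0.05, and no call among the proteasome genes changed. The median of the 19S cap kept its sign throughout (-0.41 to -0.23), as did those of all proteasome genes (-0.30 to -0.095) and of the constitutive 20S core (-0.25 to -0.042). The median of all tested genes ran from -0.13 to 0.014. Genes lower in every pair used numbered 17 to 34 of the proteasome genes when a pair was left out (16 with all pairs), 8 to 15 of the 19S cap (8) and 5 to 11 of the constitutive core (5), the highest each time without pair 3, where only 2 pairs have to share a sign. Of all tested genes, 40.8% were lower in both pairs without pair 3 and 25.0% without pair 2, against 19.7% in all 3 pairs. The share without pair 1 was not taken. For the 19S cap the number was 12 on signals as deposited and 12 on the mean over probe sets. Signals as deposited keep the differences in array median, which ran from 17.8 to 20.1 in KO and from 16.5 to 20.4 in WT. The core gave 3 when probe sets ending in _a_at, _s_at or _x_at were dropped. Genes higher in every pair were 4 on signals as deposited, 4 after quantile normalization and 4 on the mean over probe sets, against 2, and 3 to 7 when a pair was left out. Apart from the shares given above, none was taken over all tested genes under these settings. Such counts therefore cannot be read as results about the proteasome genes. Directions turned for Nfe2l1 (0.0486 as deposited, 0.0617 after quantile normalization, -0.30 to 0.18 with a pair left out, of which 0.0822 without pair 2), and with a pair left out for Psmb6 (-0.0231 to 0.11), Psmb9 (-0.23 to 0.0387) and Psmg4 (-0.0781 to 0.54). The ratio of Psmb8 to Psmb5 ran from -0.14 to 0.24 and that of Psmb9 to Psmb6 from -0.29 to 0.0618. The cause of these changes was not tested. Of the values for single genes under the alternatives, 221 kept their direction and side of the threshold, 7 turned and 1 passed. Dropping the suffixed probe sets left no value for Psmb5, Psmb8, Psmd14 and Nfe2l1.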
